A study of Mus musculus with 30 samples.

Results

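Meg3, Rian, Mirg, Malat1, Neat1, Miat, Snhg11 and Peg13 are long non-coding RNAs that are abundant in the mammalian brain, and they were followed here through a polyribosome pulldown from the nucleus accumbens of female mice. They were chosen by name and found by Ensembl identifier in GENCODE M21, giving 8 of the 55335 genes in the count table. The question was whether transcripts that are mostly held in the nucleus, or carry no known protein, vary between pulldown libraries as background would. An unprecipitated input fraction was not analysed here, so enrichment over input could not be measured.

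The mice were D1-Cre-RT, in which a dopamine D1 receptor Cre line marks D1 medium spiny neurons, or A2A-Cre-RT, in which an adenosine A2a receptor Cre line marks D2 medium spiny neurons. RT stands for RiboTag, a Cre-dependent HA tag on a ribosomal protein, and the HA-tagged polyribosomes of the Cre-expressing cells were precipitated. Females went through chronic witness defeat stress, in which they watch defeats of another mouse, and were sorted by social interaction score into Susceptible and Resilient groups beside Control. Each of the 6 groups (D1 Control, D1 Resilient, D1 Susceptible, D2 Control, D2 Resilient, D2 Susceptible) had 5 libraries, and each library pooled 4 mice 24 hours after the social interaction test. The age of the mice is not given in the sources used here. Susceptible and Resilient are defined by behaviour, and mice with similar scores were pooled, so differences between single mice cannot be seen.

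Long non-coding RNAs act without being translated. Malat1 sits in nuclear speckles, bodies rich in splicing factors, and Neat1 is the scaffold of paraspeckles. Meg3, Rian and Mirg are expressed from the maternal chromosome of the imprinted Dlk1-Dio3 domain, where Rian hosts small nucleolar RNAs and Mirg hosts microRNAs. Peg13 is an imprinted, paternally expressed RNA within Trappc9, Miat is a neuronal nuclear RNA also known as Gomafu, and Snhg11 is a host gene of a small nucleolar RNA. In GENCODE M21 Snhg11 is annotated as protein_coding and Peg13 as sense_intronic.

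Libraries in this pulldown were made with SMART-Seq v4, whose first strand is primed by oligo-dT, so a run of A inside a transcript is a place where priming can begin. The windows below show the longest A run, in capitals, with 30 bases on each side, for the speckle RNA, for Rian, an imprinted RNA with very few counts, and for Neat1 as a contrast. All are from the longest annotated transcript in GENCODE M21 (GRCm38), 5′ to 3′ on the transcribed strand. Malat1 is at chr19:5795958-5796029 (minus strand), Rian at chr12:109652199-109652273 (plus) and Neat1 at chr19:5835904-5835970 (minus), each within 1 exon.
Malat1: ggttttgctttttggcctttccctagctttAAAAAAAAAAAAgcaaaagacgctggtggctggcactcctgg
Rian: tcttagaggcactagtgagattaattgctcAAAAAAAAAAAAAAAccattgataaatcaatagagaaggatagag
Neat1: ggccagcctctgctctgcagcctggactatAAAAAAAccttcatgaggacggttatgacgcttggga

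Malat1 had a run of 12 A that ended 298 bases before the 3′ end of the transcript. The run was 15 in Rian, 7 in Neat1, 5 in Mirg, 5 in Peg13, 4 in Miat and 8 in Snhg11. Over 19350 tested genes with a transcript, the median longest run was 6, and 17.6% held a run of 10 or more. A run of A is a description of these letters, and its part in the counts was not tested.

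Several libraries stood apart before any comparison. Reads outside annotated exons were those that the counting matched to no annotated exon. They made up 5.20% to 11.1% of reads in 29 libraries and 41.2% in D1 Susceptible replicate 1. With ambiguous and multiply aligned reads added, reads counted for no gene were 10.1% to 15.7% in the 29 libraries and 53.3% in that replicate. D2 Susceptible replicates 1 and 2 had 11.1% and 10.4%, and detected 15822 and 16525 genes. Gene counts ran from 28996168 to 65882152 per library. The D1 and D2 marker lists matched the class labels in direction, but D2 Resilient replicate 5 had a summed D1 marker level of 1858 CPM, inside the range of the D1 libraries (1736 to 2609), with D2 markers at 4867 CPM, and D2 Control replicate 5 had D1 markers at 1236 CPM. Comparisons between groups were also run without each of these libraries. Relations with marker levels were not run without D2 Resilient replicate 5 or D2 Control replicate 5. The genes most like each RNA, and the ranks of the RNAs for each other, used all 30 libraries.

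Levels between the RNAs were compared per kilobase of exon, as CPM (counts relative to the TMM-scaled library total) per kb. Malat1 averaged 65.6 CPM per kb over all libraries, Peg13 50.2 and Snhg11 36.2, at percentiles 96.2, 94.8 and 92.6 of 19350 genes. Miat (3.66), Neat1 (1.13) and Mirg (0.522) were at percentiles 58.8, 40.7 and 31.0, around the median gene at 2.16 CPM per kb. Meg3 (0.0140) and Rian (0.00984) were at percentiles 0.295 and 0.0982. The order of Malat1, Peg13 and Snhg11 depended on the group: Peg13 exceeded Malat1 in D1 Control (56.3 ± 2.44 against 40.6 ± 13.2 CPM per kb, SD, n = 5), and Malat1 exceeded Peg13 in D2 Susceptible (169 ± 151 against 39.9 ± 12.8), where the SD of Malat1 was about as large as its mean.

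**Figure D1:**
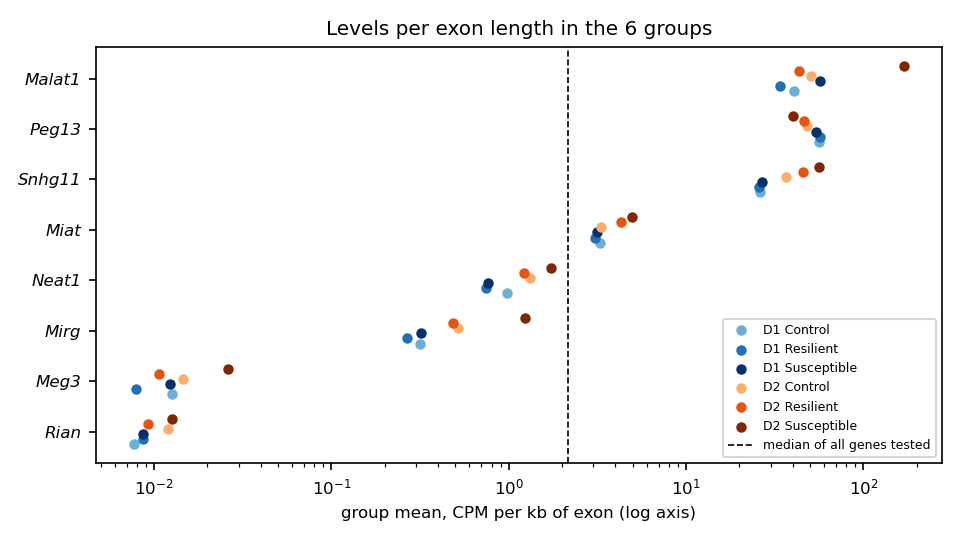
Group means of the 8 RNAs in CPM per kb of exon (x axis, log scale), 1 point per group of 5 libraries, with the median of all genes tested as a dashed line. Malat1, Peg13 and Snhg11 lie to the right of the median of 2.16 in all 6 groups, and Meg3 and Rian lie far to its left.

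Meg3 and Rian, the best known RNAs of the Dlk1-Dio3 domain in brain, were almost missing from the counts. Meg3 had 3 to 40 counts per library and Rian 0 to 31, so differences in either were hardly detectable at this depth. Mirg, from the same domain, had 26 to 1136. In GENCODE M21 8.29% of the exon bases of Meg3 and 3.42% of those of Rian lie under another gene's exons, and for Miat it is 30.4%. The annotation used for counting is not given in the sources used here, and 181 identifiers of the table have no entry in M21, so whether another gene model took reads from Meg3 and Rian was not tested. Likewise the strand setting is not given, and antisense genes overlap Meg3, Malat1 and Miat, so their counts are uncertain to that extent. All 8 RNAs passed the filter on low counts.

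Malat1 was the least reproducible of the abundant members. Its biological coefficient of variation, the spread between replicates beyond counting noise, was 59.7%, against 26.2% for the median gene and 17.8% for Snhg11 and 16.5% for Peg13. In D2 Susceptible libraries Malat1 was 2313, 2318, 259.7, 709.6 and 285 CPM in replicates 1 to 5. In D1 Susceptible libraries it was 976, 191, 219.9, 142 and 452 CPM. With TMM scaling, replicates 1 and 2 of D2 Susceptible and replicate 1 of D1 Susceptible were the highest 3 of the 30. They are the 3 libraries named above for their share of reads outside exons. The TMM factor of D1 Susceptible replicate 1 was 0.340, against 0.957 to 1.08 in the others, and its rank rests on that factor. The mean of Malat1 in D1 Susceptible was 56.7 CPM per kb with TMM and 39.2 without. In D2 Control it was 195, 247, 260.4, 718 and 358 CPM, and in D2 Resilient 354, 364, 308, 251 and 229 CPM, so the D2 groups overlapped.

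**Figure D2:**
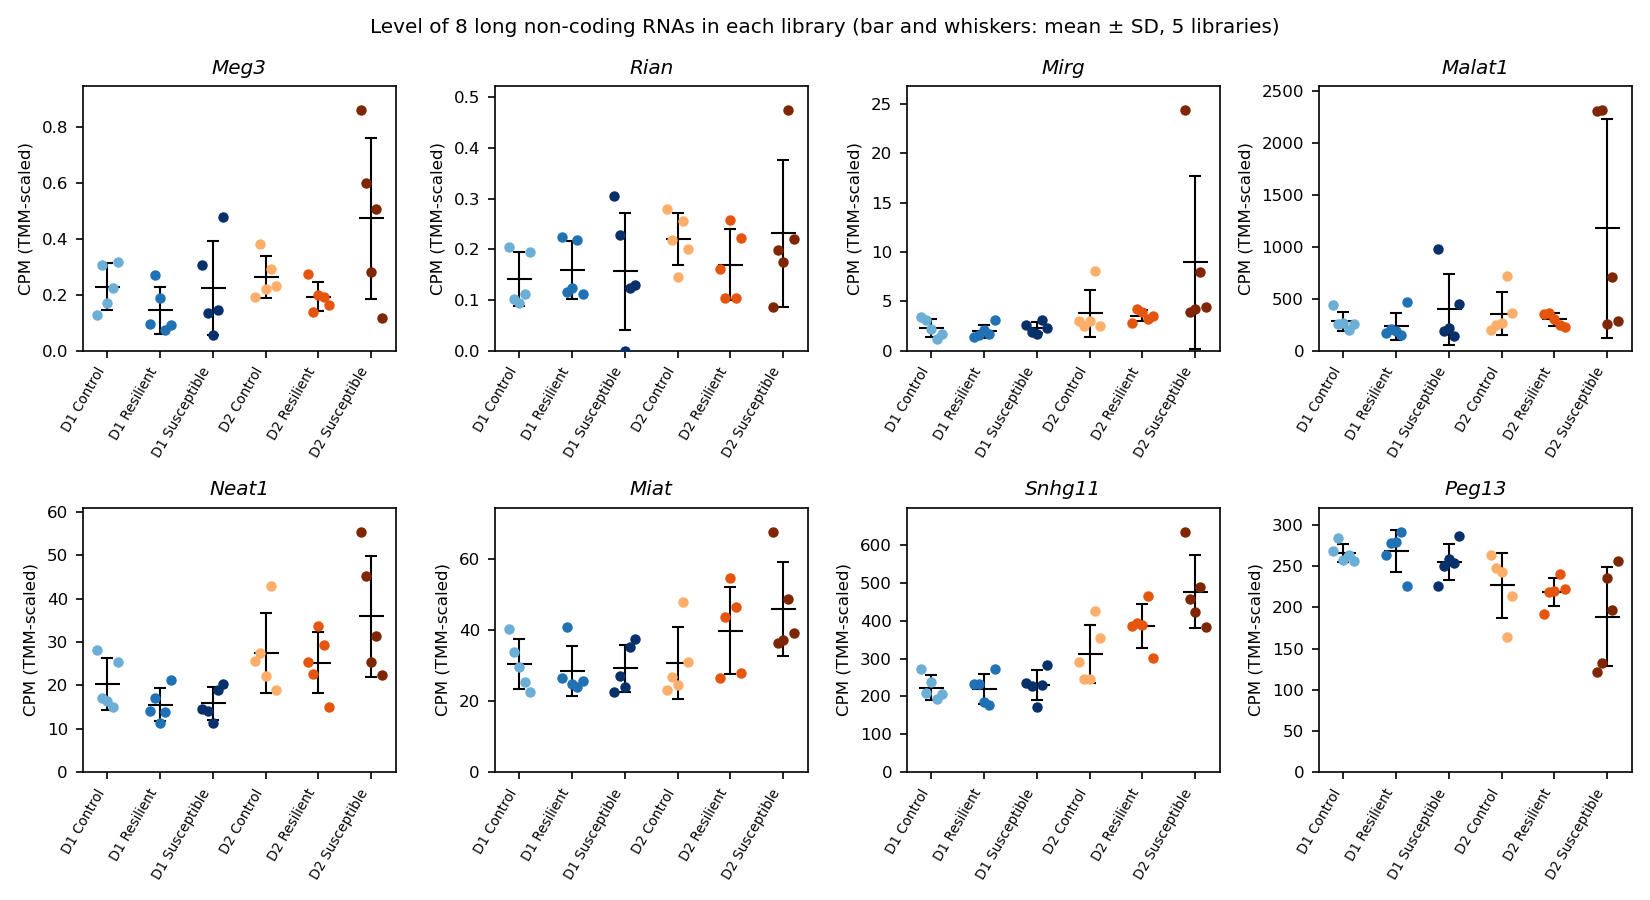
TMM-scaled CPM (y axis, linear, from 0) of each RNA in each of the 30 libraries, with points for libraries and the mean ± SD of 5 libraries for each of the 6 groups (x axis). Malat1 reaches 2318 CPM in D2 Susceptible, while all its D2 Resilient values lie between 229 and 364 CPM.

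In unstressed mice, D1 and D2 pulldowns differed in 1 of the 8 RNAs. Snhg11 was lower in D1 Control, at 273, 208, 239, 192 and 206 CPM, than in D2 Control, at 292, 247, 247, 425 and 354 CPM. Most D1 values lay below the lowest D2 value, but D1 Control replicate 1 overlapped with D2. The log2 difference was -0.49 ± 0.16 (SE; edgeR adjusted p = 0.0485), and 8.3% of all 19368 genes tested were called in this comparison. The call did not survive under several other settings: it was lost with DESeq2 size factors (adjusted p = 0.0588), without TMM (0.363), without the filter (0.0871), and when any 1 of 7 of the 10 libraries was left out, among them D2 Control replicate 5. The other 7 RNAs were not called, with log2 differences from -0.72 for Mirg to 0.23 for Peg13, and the median of the 8 was -0.38 against -0.0028 for all genes.

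In Resilient mice Snhg11 was again the 1 RNA called, and here the groups did not overlap. It was 233, 234, 185, 176 and 273 CPM in D1 Resilient, and 386, 394, 389, 465 and 301 CPM in D2 Resilient. Every D1 value was below every D2 value. The log2 difference was -0.81 ± 0.16 (edgeR adjusted p = 6.600e-04), with 6.65% of all genes called and 9.7% not overlapping. Leaving out any 1 of the 10 libraries, the Snhg11 difference ran from -0.88 to -0.72 and stayed called. Without D2 Resilient replicate 5, the library with high D1 markers, Neat1 was called as well.

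In Susceptible mice 6 of the 8 RNAs passed the test between D1 and D2 pulldowns, where 23.9% of all genes did. Snhg11 was 236, 227, 173, 230.4 and 283 CPM in D1 Susceptible and 636, 458, 422, 489 and 383 CPM in D2 Susceptible, with no overlap. Its log2 difference was -1.06 ± 0.16 (edgeR adjusted p = 1.944e-05). Mirg was 2.64, 1.88, 1.70, 3.09 and 2.31 CPM in D1 Susceptible and 24.4, 3.95, 4.19, 7.92 and 4.37 CPM in D2 Susceptible. The groups did not overlap, although D2 Susceptible replicate 1 was far above the next library (24.4 against 7.92 CPM). Its log2 difference was -1.95 ± 0.43 (edgeR adjusted p = 0.00155).

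Neat1 was also lower in D1 Susceptible, at 14.5, 14.1, 11.3, 19.1 and 20.3 CPM, than in D2 Susceptible, at 55.5, 45.2, 25.5, 31.5 and 22.4 CPM. These groups did not overlap, and the log2 difference was -1.18 ± 0.26 (edgeR adjusted p = 0.00164). In this comparison 8.92% of all genes did not overlap between the groups. Malat1 (-1.57 ± 0.58, edgeR adjusted p = 0.0499) and Miat (-0.64 ± 0.23, adjusted p = 0.0387) were lower in D1 with overlapping groups. Peg13 was the 1 RNA that was higher in D1 (0.43 ± 0.14, edgeR adjusted p = 0.0269), and its groups overlapped too. Meg3 (-1.10) and Rian (-0.64) were not called.

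Of these 6 calls, those of Snhg11 (-0.91, edgeR adjusted p = 0.00193) and Mirg (-1.28, adjusted p = 0.0208) held without D1 Susceptible replicate 1 and D2 Susceptible replicates 1 and 2. Neat1 (-0.70, adjusted p = 0.143), Malat1 (-0.73, 0.399), Miat (-0.43, 0.385) and Peg13 (0.20, 0.319) were no longer called. Without D2 Susceptible replicate 1 alone, Mirg, Neat1 and Snhg11 were called and the Mirg difference was -1.12. The share of all genes called in these fits is not given here, so a call kept or lost is not a trait of these RNAs.

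**Figure D3:**
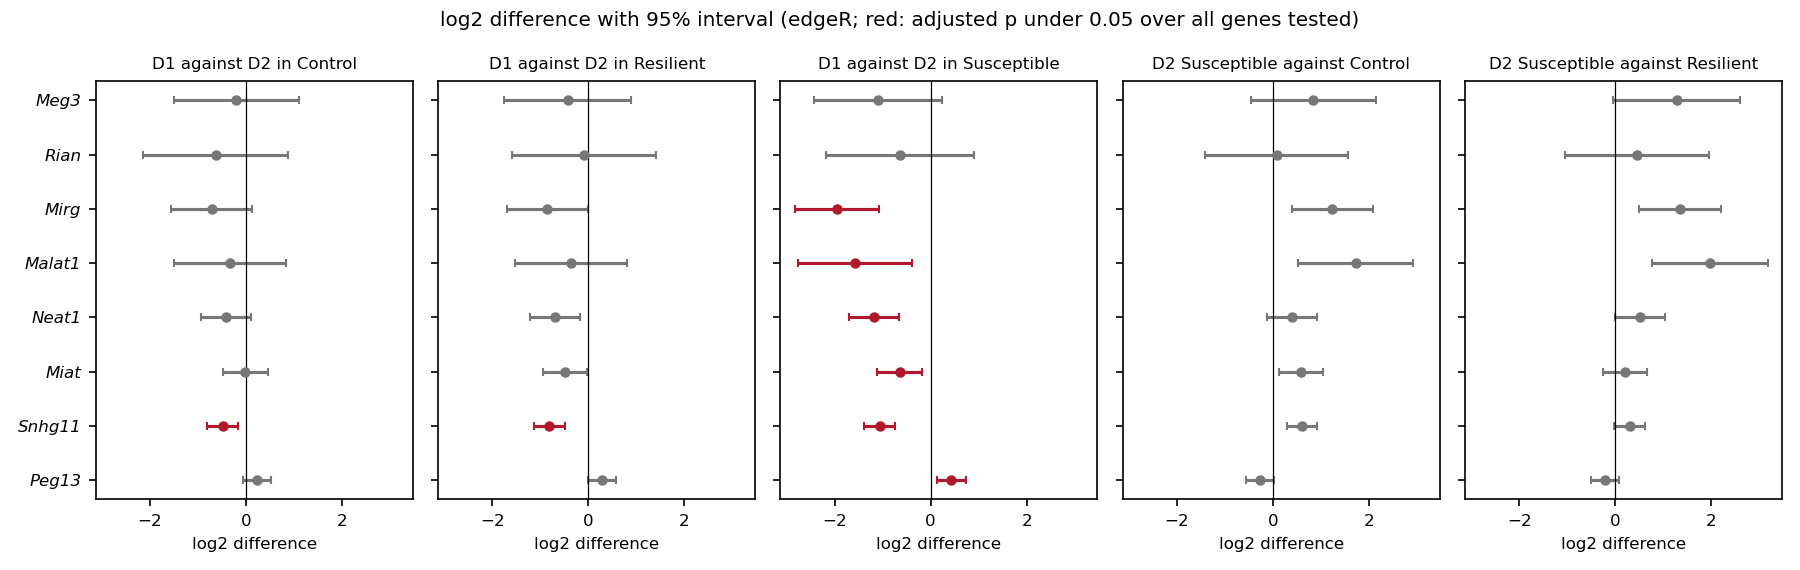
log2 differences (x axis) with 95% intervals for the 8 RNAs (y axis) in the 3 comparisons of D1 with D2 and in 2 stress comparisons within D2. Red marks an adjusted p under 0.05 over all genes tested: 1, 1 and 6 RNAs from left to right, and none in the stress comparisons.

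Markers of other cells moved with the class, but not equally. The summed level of 6 endothelial markers was 14.8 to 39.5 CPM in D1 and 63.5 to 323 CPM in D2 libraries, and all 6 were called lower in D1 in Control, Resilient and Susceptible. Astrocyte markers summed to 29.7 to 142 CPM in D1 and 57.3 to 190.1 CPM in D2. Oligodendrocyte markers summed to 357 to 943 CPM in D1 and 409 to 1867 CPM in D2, and microglia markers to 8.18 to 40.1 CPM and 13.0 to 45.5 CPM. Of 6 astrocyte markers 4, 6 and 5 were called lower in D1 in Control, Resilient and Susceptible. The numbers were 0, 2 and 4 of 6 for oligodendrocytes and 0, 3 and 0 of 6 for microglia. In each of these lists the highest D1 sum came from D1 Control replicate 1. No marker of these 4 lists was at 0 in any library, except 1 microglia marker in D2 Susceptible replicate 2. Interneuron markers went the other way, at 269 to 444 CPM in D1 and 65.7 to 268 CPM in D2, and 4 of 6 were called higher in D1 in each of the 3 comparisons, with 1 called lower in Control and in Susceptible. The part of these 5 lists in the lower Snhg11, Neat1 and Mirg levels of D1 was not tested, and in bulk pulldowns fewer cells of a type and less RNA per cell cannot be told apart.

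Stress left none of the 8 RNAs past the test in either class. In D1, no gene of 19368 was called by edgeR in any of the 3 stress comparisons (0%), and no RNA of the 8 had an unadjusted p under 0.05, as 2.4% of all genes did from Control to Susceptible, 2.6% from Control to Resilient and 3.49% between Resilient and Susceptible. In D2 Susceptible against Control, 1 gene (0.00516%) was called, and of the 8 RNAs 4 had an unadjusted p under 0.05, as did 15.7% of all genes. These were Snhg11 (0.61 ± 0.16, edgeR adjusted p = 0.129), Mirg (1.24 ± 0.41, 0.182), Malat1 (1.73 ± 0.58, 0.189) and Miat (0.58 ± 0.23, 0.218). DESeq2 called Snhg11 here. In D2 Susceptible against Resilient, 10 genes (0.0516%) were called and none of the 8, with Malat1 at 1.97 ± 0.59 (edgeR adjusted p = 0.0869) and Mirg at 1.35 ± 0.42 (0.0896). They were the 2 of 8 with an unadjusted p under 0.05, as had 19.1% of all genes, and DESeq2 called both. D2 Resilient against Control gave no calls (0%). These comparisons share their Control or Susceptible libraries.

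The D2 Susceptible values of Malat1 rested on the pair of libraries that stood apart. Without D1 Susceptible replicate 1 and D2 Susceptible replicates 1 and 2, Malat1 was 0.23 (edgeR adjusted p = 1) against Control and 0.47 (adjusted p = 0.985) against Resilient. Mirg was 0.54 and 0.63 there. Leaving out D2 Susceptible replicate 3, a library with low Malat1, gave 3 calls against Control, of Mirg, Malat1 and Snhg11. The difference between the D1 and D2 changes was called for none of the 8 RNAs nor for any other gene (0%). From Control to Susceptible 3 of the 8 had an unadjusted p under 0.05 for it, as did 7.79% of all genes, with Snhg11 at -0.57 ± 0.22 (edgeR adjusted p = 0.637).

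The level of Malat1 followed the share of reads outside annotated exons from library to library. To look within groups, the group means were subtracted from log2 CPM and from the logit of that share, and 24 relations (8 RNAs by 3 measures) were tested by permutation within groups. For Malat1, Pearson's r was 0.729 and Spearman's rho 0.870 over 30 libraries. The permutation p was 1e-05 for each, the smallest 100000 resamples can give, and 0.00024 after adjustment over the 24. Without the farthest 2 libraries, D1 Susceptible replicate 1 and D2 Susceptible replicate 1, r was 0.911. It was 0.813 in the D1 libraries (n = 15) and 0.972 in the D2 libraries (n = 15), and 0.870 without the 3 libraries that stood apart.

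Left out alone, D1 Susceptible replicate 1 made a difference. Without it the r of Malat1 was 0.928, the highest of 19368 genes, while with it 82 genes (0.423%) were as high or higher. Without TMM, r was 0.476 and rho 0.815 (permutation adjusted p = 0.0147 and 0.00024), and r was 0.913 without the farthest 2 libraries.

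Peg13 moved the other way. Its r with the share outside exons was -0.427 and rho -0.580 (permutation p = 0.00163 and 0.00421, adjusted 0.0130 and 0.0253), and r was -0.614 without the farthest 2 libraries. In the D2 libraries r was -0.930, and in the D1 libraries -0.426 (permutation p = 0.308). In D1 without Susceptible replicate 1 it was 0.189, and without the 3 libraries it was -0.392 (adjusted p = 0.167). Without TMM r was -0.892 over the 30 libraries (permutation adjusted p = 0.00968). With TMM the median gene was at -0.0833. Of all genes, 91.1% had an r as high as that of Peg13 or higher, and 84.5% did without the 3 libraries.

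The other members were less clear. Snhg11 had r = 0.319 and rho = 0.666 (permutation adjusted p = 0.279 and 0.00168), and Neat1 r = 0.230 and rho = 0.522 (adjusted 0.317 and 0.0268). Without D1 Susceptible replicate 1, r was 0.676 for Snhg11 and 0.681 for Neat1 (permutation adjusted p = 0.00084 and 0.00184). Over all libraries 10.5% and 16.6% of genes had an r as high or higher, and 2.86% and 2.71% did without that library. Without TMM r was -0.491 and -0.329 (adjusted p = 0.450 and 0.545), while rho was 0.269 and 0.236 (adjusted p = 0.485 and 0.542) and r without the farthest 2 libraries was 0.582 and 0.610. Mirg (0.285), Meg3 (0.435), Rian (0.335) and Miat (0.0159) did not pass the adjusted threshold by Pearson's r. Of the 16 relations with marker levels, Snhg11 with the mean of the non-neuronal markers (r = 0.562, rho = 0.535, permutation adjusted p = 0.0125 and 0.0201; 0.581 without the farthest 2) and Neat1 with the D2 minus D1 marker index (r = 0.567, rho = 0.536, adjusted p = 0.0215 and 0.0268; 0.558) passed by both measures. Mirg with the non-neuronal markers passed by rho (0.451, permutation adjusted p = 0.0371) and not by r (0.387, 0.0592). Without TMM the relation of Neat1 with the D2 minus D1 index did not pass (r = 0.367, rho = 0.354, permutation adjusted p = 0.207 and 0.238). The farthest 2 libraries were chosen by the measure itself, before group means were subtracted. For the D2 minus D1 index they were D2 Susceptible replicates 2 and 3, and for the non-neuronal markers D1 Resilient replicates 1 and 2. D2 Resilient replicate 5 (index 1.39) and D2 Control replicate 5 (2.34) were the lowest of their groups in the D2 minus D1 index and in Neat1. In the non-neuronal mean and in Snhg11, D1 Control replicate 1 (mean 3.84) was the highest of its group. D2 Resilient replicate 5 (3.06) was the lowest of its group in both. The relations with marker levels were not run without these replicates. The share of all genes with an r as high was not computed for the marker levels. What these relations come from was not tested.

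**Figure D4:**
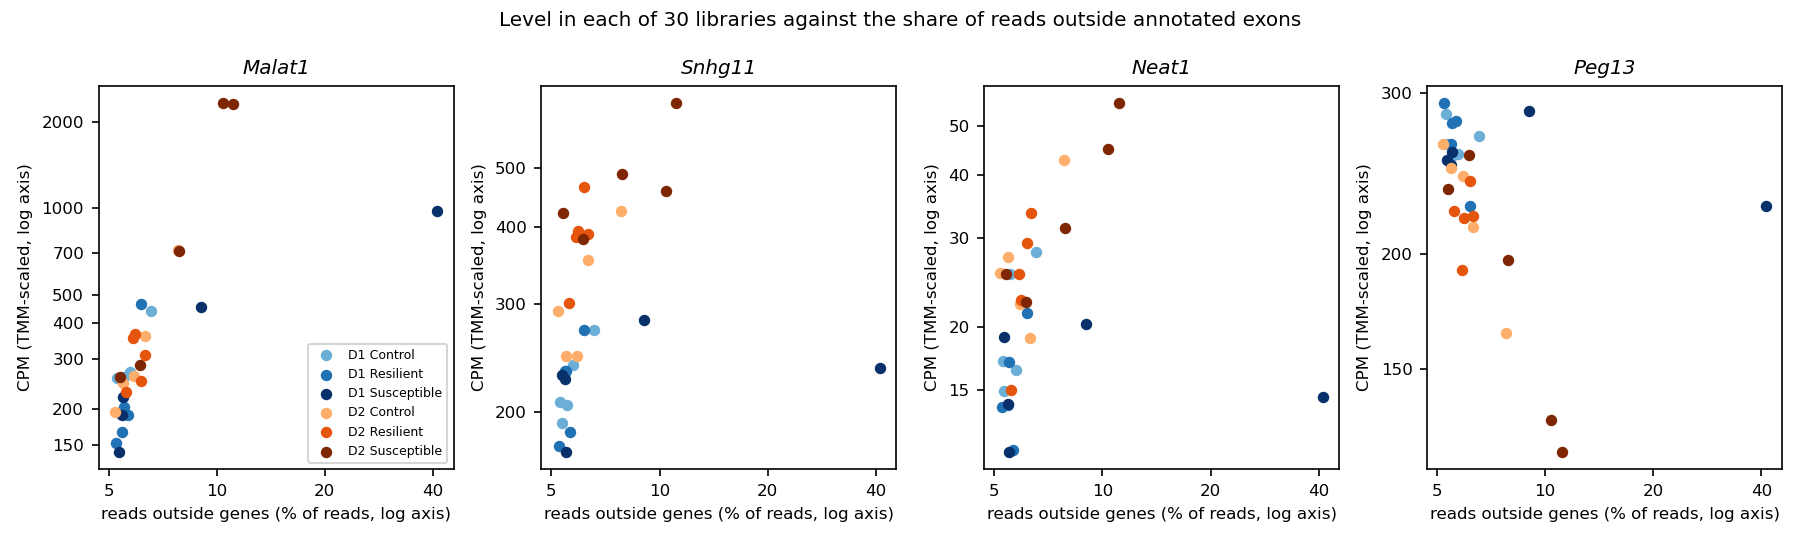
Level of Malat1, Snhg11, Neat1 and Peg13 (y axis, TMM-scaled CPM, log scale) against the share of reads outside annotated exons (x axis, percent, log scale) in 30 libraries coloured by group. Malat1 runs from 142 to 2318 CPM among the libraries with shares of 5.20% to 11.1%, Peg13 is lowest in D2 Susceptible replicates 1 and 2, and D1 Susceptible replicate 1 sits alone at 41.2%.

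With the share of reads outside exons as a covariate, chosen after the data were seen, the same 6 RNAs were called between D1 and D2 in Susceptible mice. When D1 Susceptible replicate 1 was also left out, Neat1 (edgeR adjusted p = 0.0476) and Snhg11 (1.296e-04) were called, and Mirg (0.0861), Malat1 (0.0666) and Peg13 (0.0824) were not. For these comparisons of D1 with D2, the share of all genes called in the same fit is not given here. The slope of Malat1 over all 30 libraries was 1.55 ± 0.29 (SE) log2 units per logit unit of the share (edgeR adjusted p = 0.00392), with 1.74% of genes called for this slope. Without D1 Susceptible replicate 1 it was 4.05 ± 0.33 (edgeR adjusted p = 2.492e-08), with 24.7% of genes called. Peg13 had a slope of -0.21 ± 0.09 over all 30 libraries (edgeR adjusted p = 0.247), which was not called, and of -0.84 ± 0.19 without that library (adjusted p = 0.00129).

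The 8 RNAs did not vary as 1 group. Of 28 pairs, 13 had an adjusted permutation p under 0.05 for Pearson's r of deviations from group means. The share of all gene pairs that would pass was not computed, so this count is not a trait of these RNAs. Neat1 and Snhg11 (r = 0.714, rho = 0.635, adjusted p = 0.00205 and 0.0084; 0.669 without the farthest 2 libraries), and Miat and Snhg11 (r = 0.691, rho = 0.673, adjusted p = 0.00205 and 0.00462; 0.631), varied together by this permutation test. Malat1 and Peg13 varied in opposite directions (r = -0.818, rho = -0.628, permutation adjusted p = 0.00205 and 0.0150; -0.655). The RNAs of the Dlk1-Dio3 domain showed no such relation: Meg3 and Rian had r = 0.164 (permutation adjusted p = 0.723), Meg3 and Mirg 0.271 (0.391) and Rian and Mirg -0.0463 (0.847), with Meg3 and Rian near the limit of counting. Ranked by r among 19367 genes, Neat1 was 16 and Miat 33 for Snhg11. For Malat1, Neat1 was 1023 (r = 0.607), Mirg 1508 (0.542) and Peg13 19159. Many other genes thus varied as closely with Malat1. Without TMM 7 pairs passed.

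**Figure D5:**
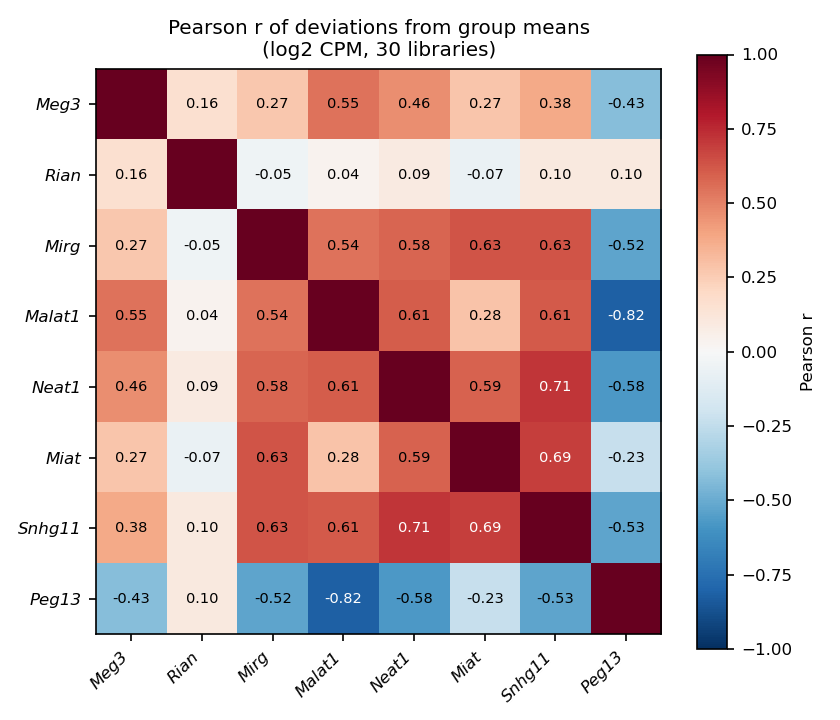
Pearson's r of deviations from group means (log2 CPM, 30 libraries) for every pair of the 8 RNAs on both axes, with colour from -1 to 1. Mirg, Malat1, Neat1, Miat and Snhg11 are positive with each other, from 0.28 to 0.71, Peg13 is negative with all 5, and Rian is near 0 with most.

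The genes whose deviations were most like those of each RNA over the 30 libraries are given as a description, since all share libraries and depth. For Malat1 they were Kmt2a, a histone methyltransferase (r = 0.940), Cit (0.922) and Crebbp, a histone acetyltransferase (0.918). For Peg13 they were Nipal3 (0.969), Rnf157 (0.957) and Acvr1b, an activin receptor (0.954). Neat1 was most like Anapc13 (0.864), Bri3 (0.855) and Id1 (0.823), and Mirg was most like Tm2d3 (0.837), Cyp2u1 (0.828) and Dpm3 (0.819). Snhg11 was most like Cops9 (0.759) and Gjc3 (0.757). Miat was most like Uqcr11 (0.776), Rpl37rt (0.773) and Srcin1 (0.767).

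Other long non-coding RNAs and neighbours were read from lists, beside the 8.3%, 6.65% and 23.9% of all genes called between D1 and D2 in Control, Resilient and Susceptible. Of 12 tested nuclear-enriched RNAs, 0 were called by edgeR in Control, 2 in Resilient (both lower in D1) and 7 in Susceptible (6 lower and 1 higher in D1), with a median log2 difference of -0.32 against 0.02 for all genes. Of 14 small nucleolar RNA hosts and cytoplasmic RNAs, 2 were called lower in D1 Control, Snhg8 (-1.10, edgeR adjusted p = 0.00373) and Snhg20 (-0.98, 0.0195), 0 in Resilient and 6 lower in D1 Susceptible. Their median was -0.36 in Control and -0.74 in Susceptible, where the nuclear-enriched RNAs had -0.13 and -0.32. In Resilient these medians were -0.07 and -0.16. Of 10 other brain RNAs, 1 was called lower and 1 higher in D1 Control, and 1 lower in Resilient. In Susceptible 3 were lower and 1 higher, with a median of -0.22. In D2 Susceptible against Control no RNA of these lists was called, with Kcnq1ot1, an imprinted antisense RNA of the nuclear-enriched list, at 1.77 (edgeR adjusted p = 0.158). Of 15 tested protein-coding neighbours of the 8 RNAs, Kcnk9, an imprinted potassium channel gene beside Peg13, was the 1 called in Control, higher in D1 (1.10, adjusted p = 3.634e-05), with 1 called higher in Resilient and 5 in Susceptible. Trappc9, which contains Peg13, was 0.15 (adjusted p = 0.777). Of 11 paraspeckle and speckle proteins Pspc1, a paraspeckle core protein, was the 1 called in Control (0.30, adjusted p = 0.0297, higher in D1), 0 were called in Resilient and 4 in Susceptible (2 higher and 2 lower in D1), and none was called in the D2 stress comparisons.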

How the data were processed

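The unit of the deposited data is the raw count per gene, in 30 libraries, made by the authors with HISAT2 and HTSeq on GRCm38 (mm10), per the submitters' processing notes; versions, the annotation release and strandedness were not given in the sources used here. In 30 of 30 columns, a table of the whole series equalled the files per library. Polyribosomes were precipitated with an anti-HA antibody, and SMART-Seq v4 libraries started from 10 ng of RNA, as the labels' protocols say. Lines of reads not assigned to a gene stayed out of library sizes and tests. Reads outside annotated exons were 5.20% to 41.2% of all lines, and ambiguous reads 0.344% to 1.84%.

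Symbols came from GENCODE M21, which named 55154 of 55335 genes. Genes were kept by filterByExpr (minimum count 10, total 15), leaving 19368. After TMM scaling, tests were made with edgeR 4.0.16 (R 4.3.3) by the robust quasi-likelihood F test in 1 model of 6 groups, with Benjamini-Hochberg adjustment over all genes tested in each of 12 comparisons at 0.05. Groups and replicate numbers came from the titles, and p-values measure the spread between pools of 4 mice. Correlations took log2 CPM (prior count 2) and 100000 permutations within groups (numpy 2.4.6, scipy 1.17.1). Total counts per library set the precision, and 3 counts correspond to 0.0430 to 0.304 CPM. Scripts were tested on simulated data. There edgeR missed a part of the changed genes, so an RNA that was not called may still differ. The pass condition of that check was changed after its first result was seen.

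All 8 RNAs are named in the comparisons of D1 with D2, and in others where a value bears on the result. To them were added, for each RNA, the 3 genes with the highest r (unique symbol, no Gm number, Rik or clone name), given for 6 RNAs because Meg3 and Rian have too few counts (1 gene and 1 sequence are not reported here), and from lists the genes past the test or with the smallest p. Trappc9 was named beyond this rule after its value was seen. One of the 6 D2 markers was not analysed here. The RNAs and lists were chosen with earlier results of these data known. Alternatives were DESeq2 1.42.0, its size factors in edgeR, no TMM, no filter, only the groups compared, a replicate block, voom with sample quality weights (limma 3.58.1), a prior count of 5, leaving out each library in turn or 3 together, and, chosen after seeing the data, the share of reads outside exons as a covariate and relations without D1 Susceptible replicate 1.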

Additional observations from a re-analysis of the deposited data

Results flagged for a closer look

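In 4 of 48 combinations of RNA and group, 1 library stood apart from the other 4 of its group by a gap of more than 0.71 of the group's range. For independent, normally distributed values, chance alone would mark about 1 in 20 groups. Here the CPM values were not log-transformed and the combinations share libraries, so that rate is only a rough guide. All the marked libraries were the highest of their group. Mirg was 8.02 CPM in D2 Control replicate 4, with the next library at 3.01 CPM, and 24.4 CPM in D2 Susceptible replicate 1, with the next at 7.92 CPM. Malat1 was 465 CPM in D1 Resilient replicate 5, where the next library had 203 CPM. Miat was 40.9 CPM in D1 Resilient replicate 2, where the next had 26.5 CPM. The causes were not tested.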

How the results depend on the processing

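The number of RNAs called between D1 and D2 in Control was 0 with DESeq2 size factors, without TMM, without the filter and with the replicate block, 3 with voom, and 0 to 1 leaving out 1 library. In Resilient it was 4 with only the groups compared, 5 with voom, 2 without the 3 libraries that stood apart, and 1 to 2 leaving out 1 library. In Susceptible it was 3 with only the groups compared, 2 without the 3 libraries, 2 with the covariate and without D1 Susceptible replicate 1, and 3 to 6 leaving out 1 library. In D2 Susceptible it was 1 with DESeq2 against Control (0 to 3 leaving out 1 library) and 2 with DESeq2 against Resilient (0 to 2). The other 7 comparisons had 0 RNAs called under all alternatives run. For the alternatives, DESeq2 and voom included, the share of all genes called in the same fit is not given here. Whether the RNAs were called more often than other genes under an alternative was therefore not tested. Relations with reads outside exons and markers that passed were 4, but 11 without the 3 libraries and 9 without D1 Susceptible replicate 1, and pairs of RNAs were 13, but 7 without TMM.

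Values that were not called changed sign in places. Between D1 and D2 in Control, Malat1 was 0.0712 with the covariate and without D1 Susceptible replicate 1 and ran from -0.53 to 0.11 leaving out 1 library, and Miat was 0.0027 without the filter, 0.0010 with the replicate block, 0.0293 with voom, 0.0744 with that covariate fit and from -0.13 to 0.22 leaving out 1 library. Rian in Resilient was 0.0763 with voom and from -0.22 to 0.13 leaving out 1 library. In D2 Susceptible against Control, Meg3 was -0.35 with voom and -0.0139 with the covariate and without D1 Susceptible replicate 1. Rian was -0.0281 with the covariate and from -0.36 to 0.28 leaving out 1 library. Neat1 was -0.0028 with voom, -0.0538 without the 3 libraries and -0.0949 with the covariate and without D1 Susceptible replicate 1, and Peg13 was 0.0149 without the 3 libraries. Against Resilient, Neat1 (-0.0147) and Miat (-0.12) turned with the covariate and without D1 Susceptible replicate 1, Miat (-0.0704) and Peg13 (0.0812) with voom, and Peg13 (0.061) without the 3 libraries. Without TMM, the r with reads outside exons was -0.121 for Mirg, -0.329 for Neat1, -0.504 for Miat and -0.491 for Snhg11, and the r of Peg13 with non-neuronal markers was 0.359. Without D1 Susceptible replicate 1, Rian with reads outside exons was -0.0409 and Peg13 with non-neuronal markers 0.00923, and without the 3 libraries Rian with Mirg was 0.200. The causes were not tested.

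The plan listed single-RNA differences for 9 pairwise comparisons. For the 4 whose values are not printed one by one, they were set aside after it was seen that many values near 0 changed sign: of 635 values of 32 differences, 94 had the other sign, in 22 differences, and 0 were called. Same-numbered libraries did not deviate together (mean r -0.00399, 0 of 75 pairs over 0.1, and 2 libraries most like their own number), so no pairing by number was seen in the counts. Whether same-numbered libraries were handled together cannot be told from this. Per kb of the longest transcript, Rian was 0.0222 and Snhg11 52.6. Counts of 0 to 40 limit Meg3 and Rian, and pools of 4 mice in groups of 5 limit the rest.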
